A study of Arabidopsis thaliana with 28 samples.

Results

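The data describe 853 sites of the Arabidopsis genome that lay under both H3K4me3 and H3K27me3 in Col-0. They were chosen by the measured peaks themselves: a site is a stretch of at least 200 bp on chromosomes 1 to 5 covered by H3K4me3 peaks in both Col-0 lists and by H3K27me3 peaks in both Col-0 lists. The sites came from 14128 stretches under H3K4me3, of which 852 (6.03%) hold a site, and from 6258 stretches under H3K27me3, of which 797 (12.7%) hold one. Together they cover 379652 bases. Stretches under H3K4me3 with no H3K27me3 peak in either Col-0 list (13178, called H3K4me3 alone) and the reverse (6494, called H3K27me3 alone) serve as the comparison.

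Col-0 is the diploid Arabidopsis accession used as wild type, and 4 × Col-0 is an autotetraploid line made from it with colchicine, so both carry the same alleles. Both were grown for 10 days on Murashige & Skoog medium with 16 h of light and 8 h of dark, and their aerial parts were taken. ChIP-seq of each mark has 2 peak lists per genotype and anti-H3 ChIP-seq has 1, and RNA-seq is given as 1 FPKM value per gene and genotype (fragments scaled by gene length and by library size). The lists hold 16520 to 17116 H3K4me3 peaks and 6274 to 7127 H3K27me3 peaks each. The 2 lists of a mark and genotype share 79.1% to 84.0% of the bases that either covers. For H3K4me3 these lists may not be independent libraries. Of the 5 leaf markers RBCS1A stood at 9250 FPKM in Col-0, LHCB2.1 at 7524, RCA at 3094 and GLK1 at 87.2, while LHCB1.3 was listed at 0 in both genotypes. Of the 5 root markers PYK10 stood at 2127 FPKM, EXPA7 at 21.5, SCR at 8.60, COBL9 at 3.44 and WOX5 at 0.50, so root markers were not absent from the tissue labelled as aerial.

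H3K4me3 is a methylation of histone H3 that is found at the 5′ part of transcribed genes. H3K27me3 is laid down by Polycomb repressive complexes and covers the bodies of genes that are silent in a given tissue, among them many regulators of flowering and development. In animals, promoters that carry both marks are called bivalent. In pieces of seedling, a nucleosome with both marks and cells that carry 1 mark each cannot be told apart.

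The sequences of 5 sites are shown because their genes are regulators or responsive genes for which both marks are described below. They also show places in a gene where a site can lie. Each is a run of 150 bases of coding sequence inside the site, written 5′ to 3′ on the strand of the gene, from the RefSeq copy of the assembly TAIR10.1, and capitals mark the start codon or a match on either strand to GAGAGA or to the telobox, which reads AAACCCTA. The runs are chr5:3179190-3179339 on the minus strand for FLC, chr1:8302343-8302492 (minus) for KNAT6, chr2:17711781-17711930 (minus) for COR15A, chr5:21902156-21902305 (minus) for CUC2 and chr5:24844493-24844642 (plus) for LFY.
FLC: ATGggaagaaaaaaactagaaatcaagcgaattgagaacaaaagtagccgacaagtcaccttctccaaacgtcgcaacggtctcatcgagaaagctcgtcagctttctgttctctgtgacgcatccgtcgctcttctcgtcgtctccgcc
KNAT6: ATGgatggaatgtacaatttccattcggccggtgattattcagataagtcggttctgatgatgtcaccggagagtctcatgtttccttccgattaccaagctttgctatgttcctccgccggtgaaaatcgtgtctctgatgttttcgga
COR15A: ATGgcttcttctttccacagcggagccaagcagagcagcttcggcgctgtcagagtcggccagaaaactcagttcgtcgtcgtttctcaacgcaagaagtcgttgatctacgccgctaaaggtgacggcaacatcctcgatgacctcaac
CUC2: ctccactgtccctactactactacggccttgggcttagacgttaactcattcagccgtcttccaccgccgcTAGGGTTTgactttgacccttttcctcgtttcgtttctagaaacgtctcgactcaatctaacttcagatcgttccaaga
LFY: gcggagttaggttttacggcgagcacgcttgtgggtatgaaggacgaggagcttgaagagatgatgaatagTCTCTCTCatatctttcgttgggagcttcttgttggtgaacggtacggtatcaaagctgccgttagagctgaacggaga
The sites of FLC, KNAT6 and COR15A hold the start codon of the gene, and those of CUC2 and LFY are shown where they hold the motifs. The LFY run holds 2 overlapping matches to GAGAGA, and the CUC2 run holds 1 telobox. Unlike most sites, that of CUC2 (chr5:21902056-21902552) lies near the end of its gene, which spans chr5:21901966-21903823 on the minus strand.

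The sites lay just inside genes. Of the 853 sites, 838 overlapped a gene, 717 (84.1%) lay in a gene body away from the start, 121 (14.2%) covered a gene start, 4 lay within 1 kb before a start and 11 lay elsewhere. The centre of a site in a gene stood a median of 389.5 bp from the gene start, with quartiles of 272 and 642 bp, and 325 sites (38.8%) had their centre 200 to 400 bp into the gene. Over the 803 genes that hold a site, the share with the base under both marks was highest at 300 bp into the gene, at 64.6% in Col-0 and 58.3% in 4 × Col-0. Before the gene start that share fell away over a short distance, while H3K27me3 by itself reached further in both directions.

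**Figure D1:**
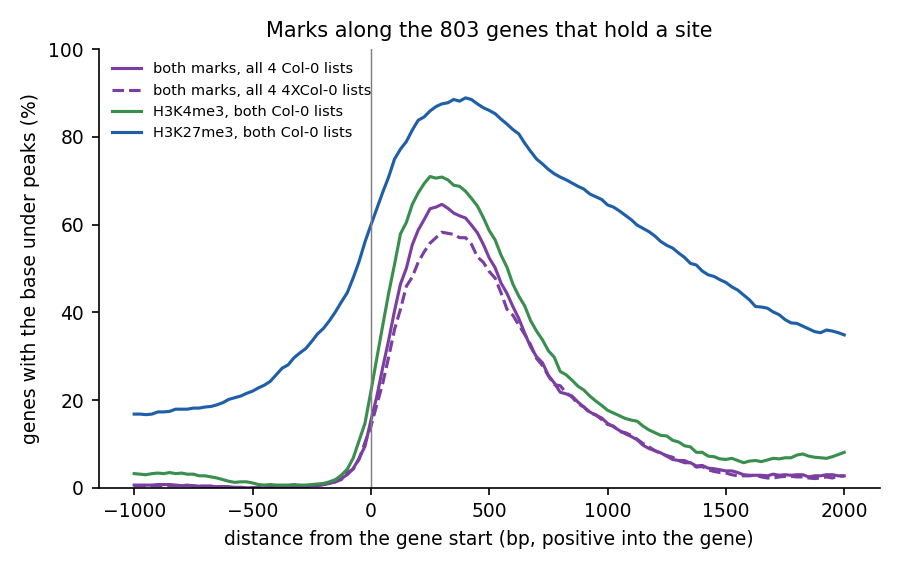
Share of the 803 genes with a site (vertical axis, %) whose base at a given distance from the gene start (horizontal axis, bp) lies under both marks in Col-0 (solid purple) or 4 × Col-0 (dashed purple), under H3K4me3 (green) or under H3K27me3 (blue) in both Col-0 lists. Both marks together peak 300 bp into the gene at 64.6% in Col-0 and 58.3% in 4 × Col-0; the Col-0 curves are a description, since Col-0 peaks chose the genes.

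Sites were 200 to 1462 bp long, with a median of 399 bp and quartiles of 282 and 559 bp. In 545 of them (63.9%) the H3K4me3 stretch lay wholly inside a longer H3K27me3 stretch, and in 308 (36.1%) H3K27me3 ended inside the H3K4me3 stretch. The H3K27me3 stretches around sites had a median length of 1610 bp against 1444 bp for all such stretches, and the H3K4me3 stretches 471 bp against 530 bp. The sites were spread evenly over the chromosomes, with 6.90 to 7.36 per Mb on each of the 5. At the limit of 200 bp, sites in AT1G02405, SAUR36 and AT3G50140 measured exactly 200 bp, and stretches in AT1G22680, AT2G33780 and NCED9 fell short by 1 or 2 bp. In all, 320 further stretches were under both marks in Col-0 but shorter than 200 bp.

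By annotation, sites were made of coding sequence. Coding exons made up 86.1% of their bases, against 60.7% in H3K4me3 alone, 41.8% in H3K27me3 alone and 28.3% of the chromosomes. Introns made up 3.64% of the bases of sites, against 18.4% in H3K4me3 alone and 16.0% in H3K27me3 alone. The genes themselves held few introns: 331 of the 775 protein-coding genes with a site (42.7%) had a single coding exon, against 22.2% of all 26685 protein-coding genes, 17.1% of genes with H3K4me3 alone in their first 500 bp and 28.9% of those with H3K27me3 alone there. The median length of genes with a site was 1543 bp, against 2320 bp for genes with H3K4me3 alone and 1937 bp for all protein-coding genes. Genes with H3K27me3 alone were shorter still, at 1444.5 bp.

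Sites were also rich in G and C. The 200 bp at the centre of a site had a median GC content of 51.0%, with quartiles of 47.5% and 54.5%, against 44.0% in H3K4me3 alone, 38.5% in H3K27me3 alone, 36.5% in all windows of 200 bp and 44.0% in windows wholly inside coding exons. GAGAGA on either strand, a sequence bound by plant GAGA factors, was found in 27.2% of the centre windows of sites, in 32.1% of those of H3K4me3 alone, in 18.6% of those of H3K27me3 alone and in 17.1% of all windows. The telobox was found in 3.75% of site windows, against 7.47% in H3K4me3 alone, 4.00% in H3K27me3 alone and 2.62% of all windows. In windows wholly inside coding exons GAGAGA was found in 21.9% and the telobox in 1.87%, less often than in sites. Sites thus lay between the stretches with a single mark for GAGAGA, near H3K27me3 alone for the telobox and above both for GC content.

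Peaks of anti-H3, which the methods name as the control, lay over most sites. An anti-H3 peak touched 731 sites (85.7%) in Col-0 and 748 (87.7%) in 4 × Col-0, against 37.7% and 41.5% of the stretches of H3K4me3 alone and 40.0% and 44.0% of those of H3K27me3 alone. These peaks covered 76.7% of the bases of sites in Col-0, 30.1% of H3K4me3 alone, 9.43% of H3K27me3 alone and 9.53% of the chromosomes. They followed GC content in each class. Of centre windows with 50% to 55% GC, 98.5% of sites, 91.8% of H3K4me3 alone and 89.0% of H3K27me3 alone held an anti-H3 peak in Col-0, and at 55% GC or more all of them did. Of windows with 40% to 45% GC, 48.0% of sites held one, against 14.7% and 15.0%. The part of GC content and of the anti-H3 signal in the calling of these sites was not tested, and 103 of the 853 sites had no base under an anti-H3 peak in either genotype.

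**Figure D2:**
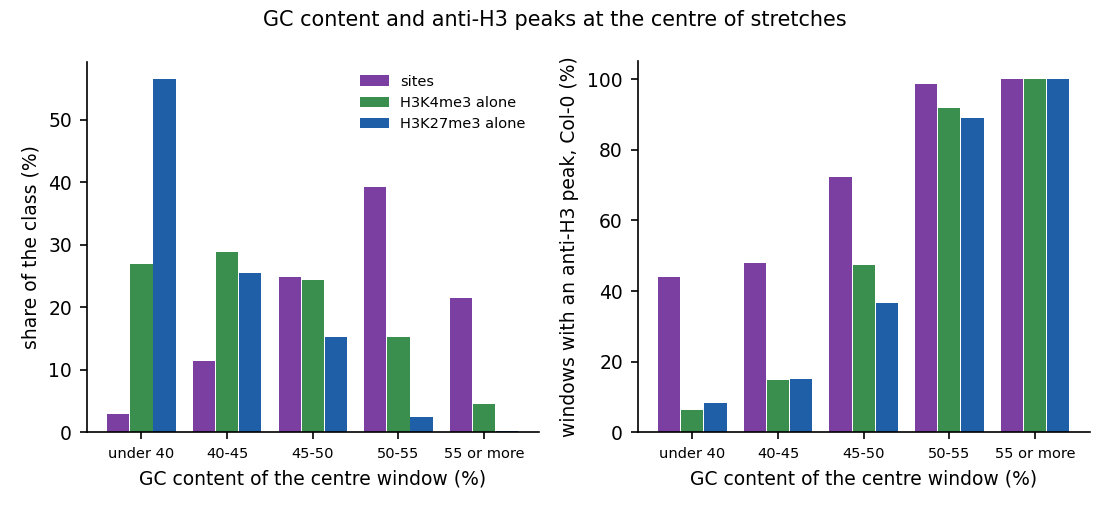
Left: share of each class of stretches (vertical axis, %) by the GC content of its central 200 bp (horizontal axis, %). Right: share of those windows that hold an anti-H3 peak in Col-0. Purple bars are the 853 sites, green bars H3K4me3 alone and blue bars H3K27me3 alone; sites are shifted to high GC, and at 50% to 55% GC 98.5%, 91.8% and 89.0% of the 3 classes hold an anti-H3 peak.

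The fold enrichment over the control, as the peak caller gave it, was lower over sites than where a mark stood alone. The methods name anti-H3 reads as that control. Anti-H3 peaks covered more of the bases of sites than of the other classes, as given above, and their part in this difference was not tested. The median fold enrichment of the H3K4me3 peak over a site was 3.49 and 3.01 in the 2 Col-0 lists, against 4.46 and 4.03 for H3K4me3 alone. For H3K27me3 it was 2.21 and 2.53 over sites and 2.44 and 2.66 for H3K27me3 alone. These Col-0 values are a description, since peaks in these lists chose the sites. In 4 × Col-0, whose lists the choice did not use, the H3K4me3 medians were 2.61 and 2.99 over sites against 3.54 and 3.93 for H3K4me3 alone, and the H3K27me3 medians were 2.18 and 2.29 against 2.41 and 2.51. The order was the same in each of the 8 lists, and it was not tested, since 2 lists per mark are too few. The 4 × Col-0 medians leave out stretches with no peak in the list. Of the 853 sites 830 and 848 had an H3K4me3 peak there, and 805 and 812 an H3K27me3 peak. For the single marks it was 13118 and 13174 of 13178 stretches of H3K4me3 alone, and 6329 and 6289 of 6494 of H3K27me3 alone.

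Genes with a site in their body were expressed at a level between those of genes with H3K4me3 alone and with H3K27me3 alone. The median over all 33278 nuclear genes was lower than theirs, at 1.58 FPKM in Col-0 and 1.80 in 4 × Col-0. Over the 803 genes with a site the median was 2.71 FPKM in Col-0 and 2.46 FPKM in 4 × Col-0, 68 and 71 of them were listed at 0, and 65.3% and 63.8% reached 1 FPKM. Among genes with at least 200 bp of the marks in their first 500 bp, the Col-0 median was 3.01 FPKM under both marks (552 genes), 12.7 under H3K4me3 alone (11648 genes) and 0.0312 under H3K27me3 alone (4680 genes). The same medians in 4 × Col-0 were 2.64, 13.7 and 0.0289 FPKM. FPKM values are given without replicates, so the spread between plants is unknown and no test between genotypes was possible.

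By the starts given in the FPKM table, a site covered the start of 122 genes, 115 of them protein-coding. These are the strictest case here of both marks at a gene start. Their median was 0.922 FPKM in Col-0, with a 95% interval of the median over genes of 0.484 to 1.63, and 0.735 FPKM in 4 × Col-0. The interval treats the genes as independent draws, which they are not shown to be, and does not measure the spread between plants. Genes with H3K4me3 alone over their start stood at 10.6 and 11.4 FPKM in the 2 genotypes, and those with H3K27me3 alone at 0.0272 and 0.0242 FPKM. Genes with no peak over their start stood near those with a site, at 0.888 and 1.03 FPKM. The number of genes with a site over the start depended on 1 library: without Col-0 H3K4me3 replicate 2 it was 186. A site within 200 bp of the start was found for 481 genes and within 500 bp for 698.

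**Figure D3:**
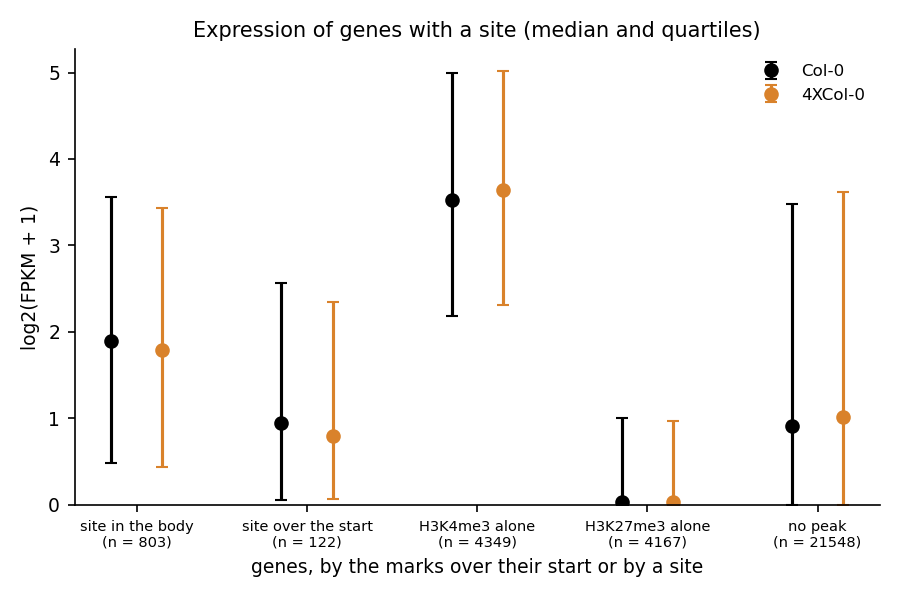
Expression on the log2(FPKM + 1) scale (vertical axis) of genes with a site in the body or over the start and of genes with H3K4me3 alone, H3K27me3 alone or no peak over their start (horizontal axis). Points are medians over genes and bars reach from the lower to the upper quartile, black for Col-0 and orange for 4 × Col-0; genes with a site lie between the 2 classes with a single mark.

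The genes of highest expression with a site over the start included IAA7, an Aux/IAA repressor of auxin response, at 351 FPKM in Col-0 and 378 in 4 × Col-0. LSU1, a gene of the response to low sulphur, followed at 102 and 86.9 FPKM. AGP10, an arabinogalactan protein of the cell wall, stood at 49.3 and 30.7 FPKM, AT3G11110 at 28.3 and 30.2, and AT5G42200 at 27.8 and 24.7. IAA7 held a site of 362 bp over its start and another of 353 bp in its body, and both kept both marks in 4 × Col-0.

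Few genes with a site differed in expression between the genotypes. Of the 122 genes with a site over the start, 1 was at least 2-fold higher in 4 × Col-0 on the log2(FPKM + 1) scale and 1 at least 2-fold lower, where 0.604% of all 33278 nuclear genes were higher and 0.4% lower. Of the 803 genes with a site in the body, 7 (0.872%) were higher and 12 (1.49%) lower. Among genes of 1 FPKM or more in either genotype, these 7 and 12 made up 1.3% and 2.23% of 539 genes with a site, against 1.1% and 0.725% of all 18346 such genes. With H3K27me3 alone over the start, 1.08% of 1107 such genes were higher and 3.25% lower, a larger share of falls than with a site. With H3K4me3 alone over the start the shares were 0.676% and 0.251% of 3992 genes. The median log2 change of the 539 genes was -0.11, against 0.08 over all 18346, 0.04 for genes with H3K4me3 alone over the start and -0.09 for those with H3K27me3 alone. After scaling the genotypes to a common upper quartile the medians were -0.16 for the 539 genes and 0.01 for all. With that scaling the 7 higher and 12 lower of the 803 genes became 3 and 13. Over all 33278 nuclear genes 147 were then higher and 149 lower, so several of the rises named below rest on the unscaled values.

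FLC, the MADS-box repressor of flowering, had the largest rise among genes with a site over the start. It was listed at 1.70 FPKM in Col-0 and 5.48 FPKM in 4 × Col-0, a log2 change of 1.26. Its site of 524 bp, at chr5:3178939-3179462, spans the gene start, and 506 bp of it were under both marks in all 4 lists of 4 × Col-0. The fold enrichment of H3K4me3 over the site was 8.01 and 3.10 in the Col-0 lists and 3.54 and 4.07 in those of 4 × Col-0, so the Col-0 values lay on either side of those of 4 × Col-0. That of H3K27me3 was 2.46 and 2.88, and 2.50 and 2.66, in the same order, again overlapping. H3K27me3 in both lists covered 86.2% of the gene in Col-0 and 85.8% in 4 × Col-0. The higher FPKM of FLC thus stood beside peaks of both marks whose heights overlapped between the genotypes, with 510 bp of the gene under both marks in Col-0 and 492 bp in the autotetraploid.

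The next 4 genes upward were AT3G27250 (4.37 to 9.10 FPKM), TDR1, an ERF-type transcription factor (1.10 to 2.69), AT1G31310 (0.837 to 1.74) and AT5G67411 (0.238 to 0.832), all short of 2-fold on the log2(FPKM + 1) scale. The largest fall with a site over the start was CAX3, a vacuolar cation/proton exchanger, which was listed at 24.4 FPKM in Col-0 and 10.0 FPKM in 4 × Col-0, a log2 change of -1.21. The 394 bp site of CAX3 kept 357 bp under both marks, with H3K4me3 at 4.25 and 1.76 in the Col-0 lists and at 2.42 and 1.80 in 4 × Col-0. The next 4 genes downward, short of 2-fold, were DIC3, a mitochondrial dicarboxylate carrier (2.03 to 0.529 FPKM), PPCK2, a kinase of phosphoenolpyruvate carboxylase (17.0 to 8.79), AT2G35640 (2.61 to 1.2) and ORS1, a regulator of organ size (6.31 to 3.46).

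With the whole gene body considered, larger falls appeared, and the genes of this paragraph were named after their values were seen. AT5G20790 was listed at 290 FPKM in Col-0 against 39.9 in 4 × Col-0, and AT3G25240 at 19.5 and 2.02. SPX3, a negative regulator of phosphate starvation signalling, stood at 21.5 and 2.87 FPKM, and PHT1;9, a phosphate transporter, at 2.14 and 0.329. HCHIB, a basic chitinase, stood at 203 and 59.0 FPKM. Besides FLC and COR15A, the 7 higher genes included CKX5, which degrades cytokinin (3.90 and 10.0 FPKM), HIS1-3, a linker histone variant (69.0 and 145), BLH4, a BELL homeodomain protein (11.6 and 24.6), AT1G80130 (15.9 and 33.5) and AT1G79170, listed at 0 in Col-0 and at 1.79 in 4 × Col-0. The sites of AT5G20790, AT3G25240, HIS1-3 and AT1G79170 had no base under both marks in all 4 lists of 4 × Col-0, while those of SPX3 and HCHIB kept 347 and 294 bp.

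**Figure D4:**
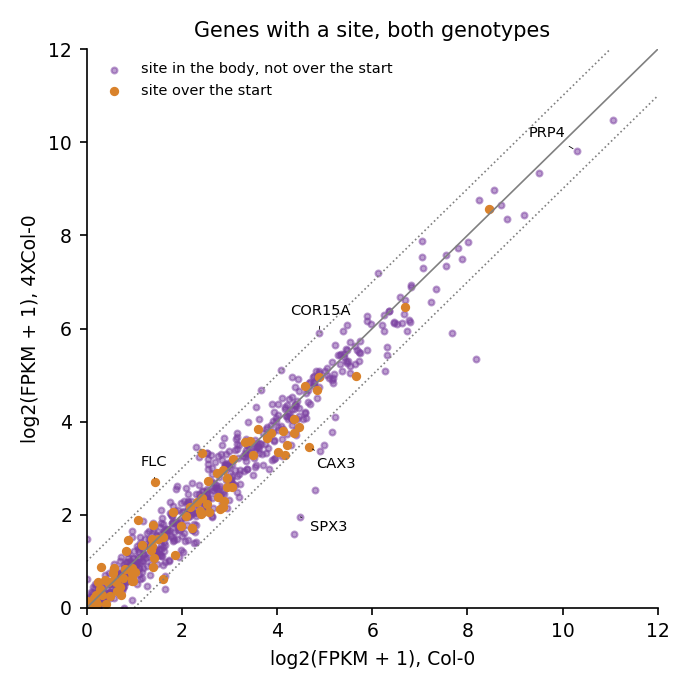
log2(FPKM + 1) in Col-0 (horizontal axis) and 4 × Col-0 (vertical axis) of the 803 genes with a site, with the 122 genes that have a site over the start in orange and the others in purple. The solid line marks equal values and the dotted lines a 2-fold difference; 7 genes lie above the upper line and 12 below the lower one.

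Of all 26685 protein-coding genes 775 (2.90%) held a site, and the counts of the gene lists stand beside that share as descriptions. In the FLC clade it was 1 of 6 genes, among flowering time regulators 1 of 20, and among floral identity genes 2 of 15. SNZ, an AP2-like repressor of flowering, held a site of 232 bp that was wholly under both marks in 4 × Col-0, with 7.99 FPKM in Col-0 and 9.57 in 4 × Col-0. SEP4, a MADS-box gene of floral organ identity, held a site of 381 bp of which a run of 85 bp stayed under both marks, at 2.42 and 3.06 FPKM. LFY, the regulator of floral meristem identity, held 3 sites although it was listed at 0.0319 and 0.0159 FPKM. The LFY site over the start (471 bp) was wholly under both marks in 4 × Col-0, the next (271 bp) kept 217 bp, and the site at the gene end (268 bp) kept none, with no H3K27me3 peak in 4 × Col-0 replicate 1. MAF5 of the FLC clade had 163 bp under both marks in Col-0, short of the limit.

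Among the shoot meristem and boundary genes, 2 of 9 held a site, beside 2.90% of all protein-coding genes. KNAT6, a KNOX homeobox gene of the meristem, held a site of 383 bp that kept 379 bp, with 4.15 FPKM in Col-0 and 5.24 in 4 × Col-0. CUC2, a NAC gene of organ boundaries, was covered by H3K27me3 over 100% of its length in both genotypes and held a site of 497 bp that kept 404 bp, at 0.251 and 0.338 FPKM. Its H3K4me3 fold enrichment was 3.62 and 2.92 in the Col-0 lists against 2.31 and 2.56, lower in both lists of 4 × Col-0. The medians over sites with a peak in the list were also lower there, at 3.49 and 3.01 in the Col-0 lists against 2.61 and 2.99. WUS, also covered over 100% by H3K27me3, had 146 bp under both marks in Col-0 and none in 4 × Col-0, and it was listed at 0 in both.

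Genes of auxin synthesis also held sites. TAA1, the aminotransferase of auxin synthesis, held a site of 541 bp that kept 525 bp, at 12.9 and 13.8 FPKM. The flavin monooxygenases YUC6 and YUC8 held sites of 860 and 640 bp that kept runs of 726 and 350 bp. YUC6 stood at 2.47 and 2.51 FPKM and YUC8 at 19.7 and 19.9 FPKM. YUC5 had 179 bp under both marks, short of the limit.

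Beside the 2.90% of all protein-coding genes, 1 of 9 genes of gibberellin metabolism held a site: GA3OX2, which makes active gibberellin, with 492 bp of which a run of 471 bp was kept, at 0.430 and 0.252 FPKM. GA20OX2 and GA2OX6 had 131 and 163 bp under both marks in their bodies. In the cold response list 1 of 9 held a site, COR15A, a chloroplast protein induced by cold. COR15A was listed at 28.5 FPKM in Col-0 and 58.5 in 4 × Col-0, a log2 change of 1.01. H3K27me3 in both lists covered 74.3% of COR15A in Col-0 against 25.6% in 4 × Col-0, and its fold enrichment over the site was 2.1 and 2.26 in the Col-0 lists against 1.76 and 1.74. Both values of 4 × Col-0 lay below both of Col-0, a separation for which 2 lists against 2 allow no p under 0.33, and the site of 277 bp kept a run of 205 bp. GLK1, a transcription factor of chloroplast development among the 5 leaf markers, held a site of 346 bp, which kept 152 bp, at 87.2 and 68.4 FPKM. None of the 4 housekeeping and 5 root marker genes held a site.

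The longest site, of 1462 bp, lay in ANL2, a homeodomain gene of the epidermis, which stood at 52.6 FPKM in Col-0 and 52.1 in 4 × Col-0. The second, of 1327 bp, lay in HDG1, another gene of the same class IV homeodomain family, at 8.03 and 8.36 FPKM. Their H3K4me3 fold enrichment was 6.86 and 6.10 for ANL2 and 7.18 and 5.56 for HDG1 in Col-0, above the median of sites, while H3K27me3 stood at 1.74 and 1.85 for ANL2 and at 2.59 and 2.94 for HDG1. The other genes of the 10 longest sites were AT3G49950, AT1G54200, the RING-type ubiquitin ligase ATL9, the leucine-rich extensin LRX2, the AT-hook genes ESC and GIK, AT1G24140 and PRP4. PRP4, a proline-rich protein of the cell wall, was listed at 1256 FPKM in Col-0 and 900.3 in 4 × Col-0 although its site of 1078 bp kept 1064 bp under both marks.

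Most sites stayed under both marks in the autotetraploid. A stretch of at least 200 bp was under both marks in all 4 lists of 4 × Col-0 for 666 of the 853 sites (78.1%), with 696 (81.6%) in pair 1 and 754 (88.4%) in pair 2, a pair being the H3K4me3 and H3K27me3 lists of the same number. The numbers are those of the sample titles, and for 1 Col-0 H3K4me3 list the deposited file name gives another number. H3K4me3 stayed in both lists at 771 sites (90.4%), against 97.8% of the stretches of H3K4me3 alone. H3K27me3 stayed at 740 sites (86.8%), against 92.4% of H3K27me3 alone. Without Col-0 H3K4me3 replicate 2 in the rule, 64.4% of the then 1195 sites were kept.

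The share kept was higher for longer sites. Of sites shorter than 300 bp 127 of 244 (52.0%) were kept, of those of 300 bp to under 500 bp 284 of 340 (83.5%), and of those of 500 bp or more 255 of 269 (94.8%). H3K4me3 stayed at 73.4% of sites under 300 bp, at 95% from 300 bp to under 500 bp and at 100% from 500 bp, against 87.4%, 98.8% and 99.99% of stretches of H3K4me3 alone. H3K27me3 stayed at 75%, 88.8% and 94.8% of sites and at 58.2%, 78.5% and 97.6% of stretches of H3K27me3 alone. The length of a site is that of the overlap of the marks, and the H3K27me3 stretch around a site had a median of 1610 bp, so stretches of equal length here do not carry peaks of equal length and no order is read from them. These shares are descriptions over stretches, which are not replicates.

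**Figure D5:**
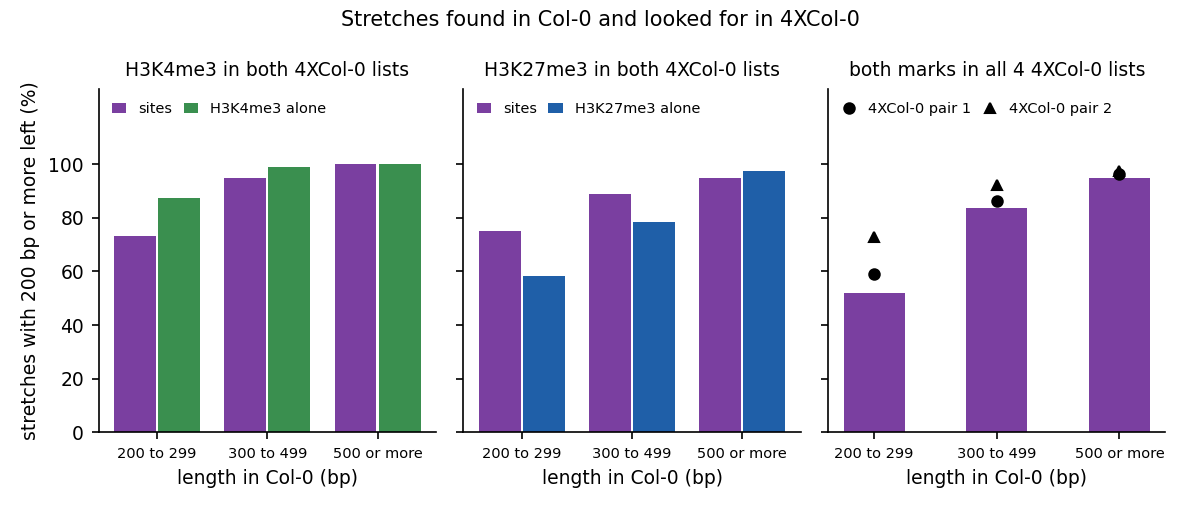
Share of Col-0 stretches with at least 200 bp left in 4 × Col-0 (vertical axis, %) by their length in Col-0 (horizontal axis, bp), for H3K4me3 (left), H3K27me3 (middle) and both marks (right). Purple bars are sites, green bars H3K4me3 alone and blue bars H3K27me3 alone, and the black points give each 4 × Col-0 pair of lists; the share of sites under both marks goes from 52.0% to 83.5% and 94.8% with length. Site length is that of the overlap, so bars of sites and of a single mark do not compare peaks of equal length.

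Of the 187 sites that were not kept, 101 lost H3K27me3 in at least 1 list and not H3K4me3, 70 lost H3K4me3 and not H3K27me3, 12 lost both, and 4 kept each mark but not over the same 200 bp. Some bases stayed under all 4 lists in 97 of them, and 90 had none. The sites that lost H3K27me3 had lower H3K27me3 fold enrichment in Col-0 already, with medians of 1.76 and 1.94 against 2.29 and 2.62 for kept sites, and those that lost H3K4me3 had H3K4me3 medians of 2.50 and 2.13 against 3.6 and 3.05. Genes of sites that lost H3K27me3 had a median of 7.20 FPKM in Col-0 and 5.59 in 4 × Col-0, against 2.46 and 2.20 for kept sites and 2.21 and 2.03 for sites that lost H3K4me3. Among the 79 sites that lost H3K27me3 in genes of 1 FPKM or more the median log2 change was -0.18, with 29 higher and 50 lower. Among kept sites it was -0.07, with 172 higher and 255 lower, and among all sites -0.09, with 224 and 341.

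Only 29 sites had no base under both marks in either pair of 4 × Col-0 lists. The longest of them lay in TCP15, a TCP transcription factor of leaf and shoot growth, where the 524 bp under both marks in Col-0 had H3K27me3 at 1.63 and 1.69 and no H3K27me3 peak in 4 × Col-0, while H3K4me3 stood at 8.61 and 3.79 in the Col-0 lists and at 3.58 and 4.86 in those of 4 × Col-0. TCP15 was listed at 29.1 and 30.1 FPKM. UGT84A2, a glucosyltransferase, lost H3K27me3 over its 504 bp in the same way, at 10.0 and 9.77 FPKM. AT3G11110, PHT4;2, a plastid phosphate transporter (0.933 and 0.679 FPKM), and AT5G05600 (15.9 and 14.0) followed. Of the 29, 27 had no base under an H3K27me3 peak in either list of 4 × Col-0 and 2 none under an H3K4me3 peak.

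The same rule in 4 × Col-0 gave 904 sites, and 656 of them (72.6%) were under both marks in both Col-0 replicates. Sites of a single pair of lists were found again in the other pair of the same genotype in 64.5% to 87.3% of cases and in a pair of the other genotype in 60.3% to 82.0%, so the 2 ranges overlapped. The length under both marks in a pair was 647942 and 515900 bp for the Col-0 pairs and 502362 and 692629 bp for the others, where the genotypes overlapped. The mean was 581921 ± 93368 bp in Col-0 and 597496 ± 134539 bp in 4 × Col-0 (SD, n = 2), a log2 ratio of 0.029 from the mean of the log2 lengths, with p = 1 in a two-sided exact permutation test whose smallest p is 0.33. Without replicate 1 the ratio was 0.42 and without replicate 2 it was -0.37. A difference between the genotypes in the extent of both marks was not detectable with these lists.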

How the data were processed

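Aerial parts of diploid and autotetraploid seedlings were profiled. For ChIP-seq the authors used BWA for alignment and Macs2 for peak calling, with anti-H3 reads as control. Each deposited peak list gives a fold enrichment over the control and the −log10 of the q-value. The H3K4me3 lists name their peaks with "merge" or "Rep4", whose meaning is not given in the sources used here. The H3K4me3 lists of a genotype may therefore not be independent libraries, and their agreement may not be that of replicates. P-values and SDs measure the spread between these lists, which may be technical. For RNA-seq the methods name STAR and featureCounts with TAIR10, and the authors deposited 1 FPKM per gene and genotype. How the FPKM were computed and the 3 replicates combined is not given in the sources used here. Peak lists and FPKM hold no read counts, so depth is unknown. The submitters' processing notes name HiC-Pro, BWA and R 3.4.1. Hi-C matrices and input libraries were not used here. The series holds input libraries for each mark and genotype beside the anti-H3 libraries. Whether the deposited lists were called against anti-H3, as the methods state, or against input could not be checked.

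Peaks were laid over the chromosomes base by base in Python 3.11.15 with numpy 2.4.6 and pandas 2.3.3. Sites were bases under all 4 Col-0 lists, in stretches of at least 200 bp. The fold enrichment of a site is that of the highest peak over it. A site was kept when a run of at least 200 bp lay under all 4 lists of 4 × Col-0. Gene positions came from the FPKM table. Symbols, exons and sequence came from RefSeq TAIR10.1, where 32808 of 33278 nuclear genes matched by locus name and 32807 of these overlapped the gene of that name. Of the matched genes, 10584 had the same start and end there, and 56.7% the same start or end. Distances from a gene start rest on the positions of the FPKM table, and the RefSeq starts were not tried. FPKM was compared as log2(FPKM + 1), which understates the change of low genes, with a limit of 2-fold. The length under both marks was compared with an exact permutation test (4 pairs of lists). The site and keeping rules were tested on simulated data.

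Members, lists and rules were chosen with earlier results of these data known. Named genes are members of the lists that hold a site, the genes of the 10 longest sites, the 5 largest rises, 5 largest falls and 5 highest values among genes with a site over the start, the 5 longest sites lost in both 4 × Col-0 pairs, and 3 stretches on each side of 200 bp. Families were counted by symbol prefix. Some members of the lists and families are not reported here.

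Alternatives were stretches of 100 or 500 bp, peaks with q of 1e-05 or less, leaving out each list, joined sites, other overlaps, windows of 200 and 500 bp, a pseudocount of 0.1, a filter of 1 FPKM, protein-coding genes, upper-quartile scaling, crossed numbers and a replicate block. Leaving out sites under anti-H3 peaks and using the whole gene body were chosen after seeing the data.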

Additional observations from a re-analysis of the deposited data

How the results depend on the processing

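The 853 sites fell to 269 with stretches of 500 bp or more, to 393 with peaks of q 1e-05 or less and to 103 without anti-H3 peaks, and numbered 903 to 1195 when a Col-0 list was left out. The percent kept was 89.4% for at least 1 base, 26.6% for every base, 63.6% with peaks of q 1e-05 or less, 72.6% for sites of 4 × Col-0 looked for in Col-0, 72.5% with 500 bp, 70.9% for sites without anti-H3 peaks and 64.4% to 84.6% when a list was left out. The log2 ratio of the length under both marks was 0.029 with a replicate block (exact sign-flip test, p = 1), where the lists share only a number and nothing pairs them; it turned to -0.14 with peaks of q 1e-05 or less and ran from -0.37 to 0.42 without a pair. The 122 genes with a site at the start became 481 and 698 within 200 and 500 bp, 67 with peaks of q 1e-05 or less, 11 without anti-H3 peaks and 132 to 186 without a list. Their median of 0.922 FPKM became 2.82 within 500 bp, 5.63 for genes of 1 FPKM or more and 2.71 for sites in the gene body. The 2 genes past 2-fold became 11 with a pseudocount of 0.1 and 19 for the gene body. With a pseudocount of 0.1 the counts over all 33278 nuclear genes also rose, from 201 higher and 133 lower to 786 and 495. In the other 23 settings the values stayed within 1.5 times, within the spread between the 4 × Col-0 pairs, within the 95% interval of the median, or in the same direction. The causes were not tested. Peak lists without read counts and FPKM without replicates limit what can be said of single sites and genes.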

Other observations

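Groups of genes counted by symbol prefix varied in the share that held a site, and the difference was not tested. WRKY genes, known for roles in defence, had one in 10 of 67 cases (14.9%), Aux/IAA genes in 4 of 24 (16.7%), ERF genes in 3 of 24 (12.5%) and the HB and WOX homeobox genes in 6 of 52 (11.5%), against 2.90% of all 26685 protein-coding genes. Genes of cytochrome P450 enzymes held one in 18 of 241 cases (7.47%), NAC genes in 5 of 81 (6.17%) and MYB genes in 6 of 121 (4.96%). None of the 23 ARF or 13 bHLH genes so named held one, groups too small beside 2.90% for a lack to be read from them. Of 178 MIR genes 1 held a site, MIR156a, a gene of the miRNA that sets the juvenile phase. Members of a family share sequence, and families were counted by symbol, so these shares are descriptions. The counts miss members with other symbols, such as the NAC gene CUC2 and the ERF-type gene TDR1, which hold sites.

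Of the 904 sites of 4 × Col-0, 109 had no base under all 4 Col-0 lists. Their median length was 285 bp and the longest measured 765 bp, in AT5G39030. Most were seen in part in Col-0: 18 had no base under both marks in either Col-0 pair, 15 had no H3K4me3 base and 2 no H3K27me3 base in either list. TCP5, a TCP transcription factor, held one of 496 bp, of which 88.1% was under H3K4me3 in Col-0 replicate 1 and 0% in replicate 2, with 100% under H3K27me3 in both. Over the 108 that lie in a gene the median was 1.04 FPKM in Col-0 and 1.12 in 4 × Col-0, with 1 gene at least 2-fold higher and 2 lower, where 0.604% and 0.4% of all nuclear genes were.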
